A study of Homo sapiens with 8 samples.

Results

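The genes described here are the matrix metalloproteinases (MMP), the secreted metalloproteinases with thrombospondin repeats (ADAMTS), the ADAMTS-like proteins (ADAMTSL) and the tissue inhibitors of metalloproteinases (TIMP). Members were taken by gene symbol, which gave 52 of 28395 genes: 24 MMP, 19 ADAMTS, 5 ADAMTSL and 4 TIMP. The symbol rule used no measured value, but the family was chosen with earlier results of these data known. RNA was sequenced from A-498 cells, an immortal line from a human kidney cancer, grown for 24 h without reaching confluence. Control line 1 (wild type control) carried non-targeting sgRNA-1 and control line 2 (wild type control) carried non-targeting sgRNA-2. The lines labelled ANXA4 KO-1 and ANXA4 KO-2 (genotype ANXA4 knockout) carried ANXA4 sgRNA-1 and ANXA4 sgRNA-2, guides against annexin A4, a calcium-dependent membrane-binding protein. Each line had 2 libraries, replicates 1 and 2. A guide and a line cannot be told apart, since each guide was present in 1 line. The labels name neither a clone nor a separate culture for any library, so p-values measure only the spread between these libraries, which may be technical.

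Depth was 15784890 to 22631588 reads per library. Values are read counts divided by 1 size factor per library, called normalised read counts below. The targeted gene, ANXA4, had values of 2821 and 3614 (control line 1), 3858 and 6773 (control line 2) and 236 and 234 (the first line labelled KO). In the second line labelled KO it stood at 3433 and 4142, within the control range, so that line is called KO-labelled line 2 throughout and a direction drawn from it goes with the label alone. The 7 renal markers used all reached a value of 10 in 2 libraries. PAX8 stood at 2987 to 4476 and PAX2 at 232 to 412 over the 8 libraries, but CA9 at only 2.07 to 24.8. The summed level of the renal markers was 88145 to 114953 (control libraries) and 80569 to 125423 (KO-labelled libraries), mostly from VIM, KRT8 and KRT18. Within it the keratins KRT8 (16747 to 20381 against 24452 to 31461) and KRT18 (6032 to 9955 against 11228 to 13291) did not overlap between control and KO-labelled libraries. The same held for 10.6% of all tested genes. VIM ran from 55646 to 83227 against 37386 to 81410.3. The part of these markers in the results below was not tested. Of 4 fibroblast markers 1 reached a value of 10 in 2 libraries and LUM was at 0, with a summed level of 4.30 to 23.9 (control) and 3.13 to 7.24 (KO-labelled). None of 4 endothelial markers reached that level, and CDH5 was at 0. Of 5 immune markers only CD68 did, CD3E was at 0, and the list summed to 1784 to 4264 and 3136 to 4410 (control and KO-labelled).

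MMPs are zinc-dependent endopeptidases that are made as inactive proforms and together can cut most proteins of the extracellular matrix. MMP14, a membrane-anchored collagenase, activates the proform of the gelatinase MMP2 with TIMP2 as an adaptor, while an excess of TIMP2 blocks it. ADAMTS proteases cut more defined targets, such as procollagen propeptides, large proteoglycans or von Willebrand factor, and ADAMTSL proteins lack a protease domain. TIMPs bind the active site of MMPs and of some ADAM and ADAMTS enzymes. In tumours of the kidney these enzymes are studied for their part in invasion and matrix turnover.

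A set dominated by 1 membrane-anchored MMP and 2 inhibitors was found in A-498. A member was tested where its value was at least 10 in at least 2 libraries. This held for 26 of 52 members: 9 MMP, 12 ADAMTS, 3 ADAMTSL and 2 TIMP. The level per kb of merged exon compares genes only as far as that length fits the transcripts expressed. It was highest for TIMP2 (mean 1873, range 1269 to 2730), MMP14 (1758, 1079 to 3152) and TIMP1 (1608, 1112 to 2637). These 3 ranges overlap, so their order is not fixed beyond the spread over libraries. MMP7 followed at 605 (115 to 1279), then MMP24 at 222 (147 to 435), ADAMTS1 at 183 (89.6 to 363) and ADAMTS12 at 154 (127 to 185). The next were ADAMTS2 at 110.5, MMP15 at 99.7, ADAMTS15 at 94.5 and ADAMTS10 at 87.2 per kb, again with ranges that overlap. The plot of levels by library shows this order and the spread of each gene.

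**Figure D1:**
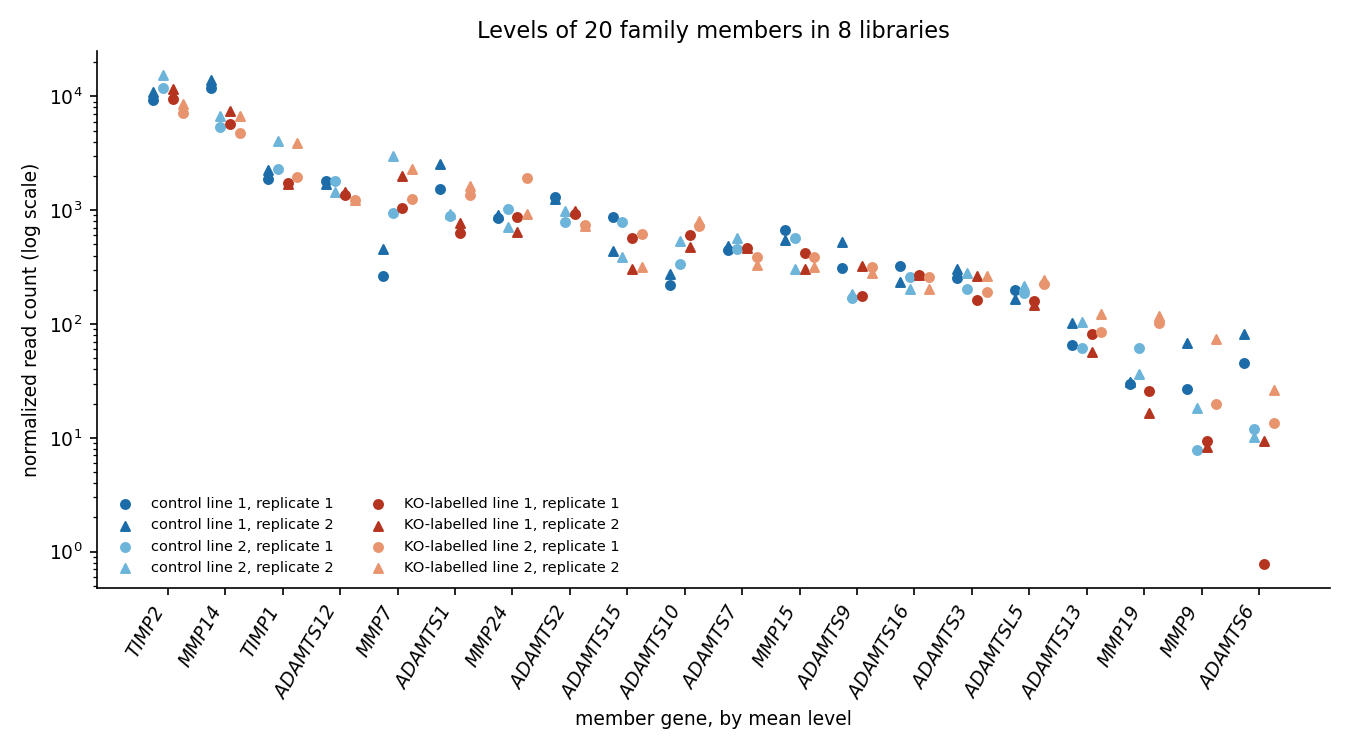
Normalised read counts (log scale, not divided by length) of 20 members, ordered by mean level; circles are replicate 1, triangles replicate 2, and colours are the 4 lines. MMP7 spans 267 to 2971 over the 8 libraries, while ADAMTS12 stays between 1237 and 1813.

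The other 26 members were near or below detection. MMP8, MMP11, MMP12, MMP26, MMP27, MMP28, ADAMTSL2, TIMP3 and TIMP4 had 0 reads in all 8 libraries, a count that allows up to 3 reads in each. Some of these overlap other genes, such as TIMP3 with SYN3 and TIMP4 with SYN2. How shared reads were counted is not given in the sources used here, so such a 0 may not mean absence. The remaining 17 had at most 15 reads in a library, a maximum held by ADAMTS5, a cartilage aggrecanase, in control line 1. The interstitial collagenase MMP1 had 0 to 5 reads, the stromelysins MMP3 and MMP10 had 0 to 5 and 1 to 6, and the membrane-anchored MMP16 had 1 to 10. The gelatinase MMP2, the target of MMP14 activation, passed the filter but reached only 3.11 to 16.6. Of the aggrecanases, ADAMTS4 had at most 3 reads and ADAMTS8 at most 7, while ADAMTS18 had 1 to 8. ADAMTSL1 had 0 to 9, ADAMTS17, ADAMTS19, ADAMTS20, MMP17, MMP20 and MMP21 had 0 to 4, and the near-identical copies MMP23A and MMP23B had at most 5. These 26 members did not enter the main test, which MMP2 did. With the filter dropped, the 17 with reads were tested too, and limma then called MMP1, MMP3 and ADAMTS19 in a comparison of KO-labelled line 2, on at most 5 reads in a library.

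The position of the genes was read from RefSeq (GRCh38.p14). MMP7, MMP20, MMP27, MMP8, MMP10, MMP1, MMP3, MMP12 and MMP13 lie in 1 group at chr11:102520508-102955732. Of these 9 genes only MMP7, the matrilysin, was well expressed, and the other members of the group stood between 0 and 17.6 in all libraries. Beside MMP7 only MMP13 passed the filter, at 4.14 to 17.6, and MMP8, MMP12 and MMP27 had no read. A similar contrast held on chromosome 21, where ADAMTS1 (chr21:26835755-26845409) was expressed at 633 to 2561 and the neighbouring ADAMTS5 (chr21:26917922-26967088) at 0 to 15.6.

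RefSeq promoters were matched for 32 of the 52 members, and the 250 bases before the start site were searched on both strands for 4 motifs. Below are the windows of MMP7 and MMP14, the 2 most abundant MMPs, which differed in opposite directions between the control lines, and of ADAMTS10 and ADAMTS12, the members with the smallest p between KO-labelled and control libraries. All are printed 5′ to 3′ along the gene, with every motif match in capitals.
MMP7, chr11:102530748-102530997, minus strand: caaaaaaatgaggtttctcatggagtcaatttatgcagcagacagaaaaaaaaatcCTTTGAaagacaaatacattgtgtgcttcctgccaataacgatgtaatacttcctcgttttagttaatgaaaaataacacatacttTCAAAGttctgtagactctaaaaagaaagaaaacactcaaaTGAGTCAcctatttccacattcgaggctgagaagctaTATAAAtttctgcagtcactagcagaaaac
MMP14, chr14:22836335-22836584, plus strand: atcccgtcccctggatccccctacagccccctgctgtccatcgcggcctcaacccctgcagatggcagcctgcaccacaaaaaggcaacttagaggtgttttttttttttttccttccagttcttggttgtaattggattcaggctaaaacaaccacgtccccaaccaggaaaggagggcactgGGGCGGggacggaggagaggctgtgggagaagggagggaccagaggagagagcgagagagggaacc
ADAMTS10, chr19:8610716-8610965, minus strand: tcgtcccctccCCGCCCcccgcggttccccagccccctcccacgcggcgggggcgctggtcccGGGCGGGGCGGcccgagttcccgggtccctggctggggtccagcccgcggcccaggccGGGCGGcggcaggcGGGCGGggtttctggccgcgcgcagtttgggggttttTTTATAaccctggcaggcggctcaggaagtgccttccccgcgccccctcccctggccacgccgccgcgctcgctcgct
ADAMTS12, chr5:33891991-33892240, minus strand: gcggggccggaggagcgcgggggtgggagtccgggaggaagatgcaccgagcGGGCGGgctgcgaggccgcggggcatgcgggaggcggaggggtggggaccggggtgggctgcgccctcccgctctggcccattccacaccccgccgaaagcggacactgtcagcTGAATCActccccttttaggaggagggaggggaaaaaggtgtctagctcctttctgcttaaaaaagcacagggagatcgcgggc

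The MMP7 window holds an AP-1 motif (TGANTCA) 67 bases before the start, a TATA motif (TATAAA) 30 bases before it and TCF/LEF motifs (CTTTGA) 194 and 108 bases before it. MMP14 has no TATA match in this window and 1 GC box (GGGCGG) at 66 bases. ADAMTS10 has 5 GC boxes, 2 of them overlapping, and a TATA match on the other strand at 78 bases. ADAMTS12 has an AP-1 match at 84 bases and a GC box at 198. Apart from these GC boxes no matches overlap in the 4 windows. The AP-1 letters occur in 6.6% of all 27305 promoters and in 4 of the 32 members (12.5%), and TCF/LEF letters in 11.4% and in 2 members (MMP7 and MMP21). GC boxes occur in 42.3% of promoters and in 23 members (71.9%), and TATA letters in 11.1% and in 8 members. The AP-1 match is not limited to expressed members, as the 4 members with it show, with 10 bases on either side.
MMP7, chr11:102530798-102530824, minus strand: aacactcaaaTGAGTCAcctatttcca
MMP10, chr11:102780679-102780705, minus strand: aacacatgcaTGAATCAtactgttggt
MMP20, chr11:102625428-102625454, minus strand: gtttgagacaTGAATCAtccttgctcg
ADAMTS12, chr5:33892058-33892084, minus strand: cactgtcagcTGAATCActcccctttt
MMP7 and ADAMTS12 were well expressed, whereas MMP10 had 1 to 6 reads and MMP20 had 1 read in all. A match is a description of the letters and not of a bound site.

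The design's main comparison set the 4 KO-labelled libraries against the 4 control libraries and asks what the ANXA4 guides did to these genes. No member passed the test (limma, adjusted p under 0.05 over 14040 genes). The all-gene background was 0.235% called. ADAMTS10 and ADAMTS12 had an unadjusted p under 0.05 in limma. DESeq2 on the recovered reads called 1 member (3.85%), ADAMTS10, where it called 6.05% of all genes, and edgeR called 0 members and 1.32% of all genes. Both fits had no term for line, so they treated the 2 libraries of a line as independent. With each line counted once as the mean of its libraries, limma called no gene. On log2(value + 1), the scale of all differences below, the 26 members had a median difference (KO-labelled minus control) of -0.23, and that of all genes was 0.00. There were 8 members above 0 and 18 below. In bulk RNA fewer cells that make a transcript and less RNA per cell cannot be told apart, here and in all comparisons below.

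ADAMTS10, a protease that binds fibrillin microfibrils, had values of 222 and 272 (control line 1), 336 and 539 (control line 2), 604 and 477 (KO-labelled line 1) and 724 and 804 (KO-labelled line 2). The KO-labelled libraries were mostly higher, but the higher library of control line 2 lay above the lower library of KO-labelled line 1. Arm means were 342 ± 139 (control) and 652 ± 143 (KO-labelled; SD, n = 4), a log2 difference of 0.98 (SE 0.30) with an unadjusted p of 0.00728 and an adjusted p of 0.237 in limma. With a fixed mean per line in place of a correlation between libraries of a line, limma gave an adjusted p of 0.00917 and called 10.5% of all genes. DESeq2, without a term for line, gave an adjusted p of 0.0204. Both measure the spread between libraries and not between lines. ADAMTS12, which cuts cartilage oligomeric matrix protein, had values of 1813 and 1695 (control line 1), 1803 and 1459 (control line 2), 1369 and 1444 (KO-labelled line 1) and 1239 and 1237 (KO-labelled line 2). It was the 1 member of 26 (3.85%) whose control and KO-labelled libraries did not overlap, against a background of 10.6% of all genes. Its means were 1693 ± 165 and 1322 ± 102 (SD, n = 4), with a log2 difference of -0.35 (SE 0.14) and an adjusted p of 0.372 in limma.

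The abundant members did not separate by label. MMP14 had values of 11745 and 14072 (control line 1), 5438 and 6743 (control line 2), 5757 and 7510.1 (KO-labelled line 1) and 4817 and 6712 (KO-labelled line 2). Both libraries of control line 1 stood above the rest, and control line 2 lay within the KO-labelled range. The log2 difference between the arms was -0.53 (SE 0.31, adjusted p = 0.569 in limma). MMP7, which cuts E-cadherin and proteoglycans, had values of 267 and 458 (control line 1), 941 and 2971 (control line 2), 1054 and 2011 (KO-labelled line 1) and 1245 and 2302 (KO-labelled line 2). Here control line 1 was the low line, and control line 2 held both the lowest and the highest of the other 6 values. The arms differed by 1.04 (SE 0.69, adjusted p = 0.633 in limma).

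TIMP2, the adaptor and inhibitor of MMP14, had values of 9334 and 11024 (control line 1), 11750.1 and 15377 (control line 2), 9583 and 11565 (KO-labelled line 1) and 7149 and 8624 (KO-labelled line 2). KO-labelled line 2 was lowest, and the other lines overlapped in part. TIMP1, a broad inhibitor that also binds the proform of MMP9, had values of 1899.5 and 2279 (control line 1), 2296 and 4064 (control line 2), 1722 and 1714 (KO-labelled line 1) and 1967 and 3882 (KO-labelled line 2). Its highest values were the replicate 2 libraries of control line 2 and KO-labelled line 2. The arms differed by -0.36 (SE 0.22) for TIMP2 and by -0.21 (SE 0.36) for TIMP1, with adjusted p of 0.585 and 0.896 in limma.

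Among the other membrane-anchored MMPs, MMP15 ranged from 303 to 667 in control and from 303 to 418 in KO-labelled libraries. MMP24, a protease best known from neurons, ranged from 715 to 1026 in control libraries and from 647 to 1918 in KO-labelled ones, where the highest value was replicate 1 of KO-labelled line 2. MMP24 overlaps MMP24OS on the opposite strand (mean 166), and the use of strand in counting is not given in the sources used here, so its level is uncertain. MMP25, anchored by a lipid, stood at 16.4 to 61.6 over the 8 libraries beside its antisense gene MMP25-AS1 (mean 48.0). MMP9, the other gelatinase, had values of 26.7 and 68.6 (control line 1), 7.74 and 18.1 (control line 2), 9.39 and 8.30 (KO-labelled line 1) and 19.65 and 73.6 (KO-labelled line 2). One line of each arm was high and one low, and the arms differed by -0.28 (SE 0.84, adjusted p = 0.949 in limma).

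The procollagen N-proteinases ADAMTS2, ADAMTS3 and ADAMTS14 trim the amino-terminal propeptide of fibrillar collagens or related substrates. ADAMTS3 ranged from 203 to 307 in control and from 162 to 265 in KO-labelled libraries, and ADAMTS14 from 21.1 to 63.4 over all 8. The proteoglycan-cutting ADAMTS9 ranged from 170.4 to 530.4 in control and from 178 to 327 in KO-labelled libraries. ADAMTS15 of the same group ranged from 389 to 874 and from 302 to 624. ADAMTS7, which cuts cartilage oligomeric matrix protein, ranged from 443 to 569.9 and from 327 to 469.9; pseudogene copies of it are annotated, which could take reads from it. ADAMTS16 ranged from 204 to 325 and from 202 to 269.

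ADAMTS13, the protease of von Willebrand factor, ranged from 61.1 to 104 in control and from 57.1 to 122 in KO-labelled libraries. It overlaps REXO4 on the opposite strand (mean 1272), so its reads may be shared. ADAMTSL5 ranged from 164 to 218 and from 148 to 243, and ADAMTSL3 and ADAMTSL4 were at most 26.7 in any library. The smallest adjusted p over all 26 members was that of ADAMTS10. These ranges overlapped between the arms for each of the members in this and the preceding paragraph.

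KO-labelled line 1, in which ANXA4 was low, was compared with both control lines on the log2 scale. Its lower members were ADAMTS1 and ADAMTS6, and none was called higher, so 2 of 26 members (7.69%) passed against a background of 7.01% of all genes. The median difference of the members was -0.29, with 5 above 0 and 21 below. ADAMTS1, which cuts versican and aggrecan, had values of 1541 and 2561 (control line 1), 884 and 920.0 (control line 2), 633 and 776 (KO-labelled line 1) and 1374 and 1641 (KO-labelled line 2). Both values of KO-labelled line 1 lay below all 6 others. Its mean was 704 ± 101 (SD, n = 2) against 1476 ± 783 (SD, n = 4) over the control libraries, and it fell by 0.93 (SE 0.20, adjusted p = 0.0291 in limma). ADAMTS6, a relative of ADAMTS10, had values of 45.1 and 82.2 (control line 1), 12.05 and 10.2 (control line 2), 0.783 and 9.34 (KO-labelled line 1) and 13.4 and 26.6 (KO-labelled line 2). The values of KO-labelled line 1 rest on 1 and 9 reads, and only control line 1 stood clear of the rest. ADAMTS6 fell by 2.67 (SE 0.66, adjusted p = 0.0462 in limma).

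Both calls depended on single libraries. The limma call of ADAMTS1 was lost without replicate 2 of control line 1 (adjusted p = 0.0561), replicate 2 of control line 2 (0.0603), replicate 1 of KO-labelled line 1 (0.2301) or its replicate 2 (0.125). For ADAMTS6 the difference was -1.40 without replicate 1 of KO-labelled line 1 (adjusted p = 0.270 in limma). The call was also lost without any 1 control library (adjusted p 0.0701 to 0.143 in limma) and in edgeR (adjusted p = 0.0680). With the replicate number as a block, 10 members passed where 24.4% of all genes did. The block added MMP7 (log2 difference 0.93, adjusted p = 0.00113 in limma) and ADAMTS10 (0.73, 0.00769) as higher. It added MMP14 (-0.42, 0.00664), ADAMTS15 (-0.49, 0.00507), MMP15 (-0.49, 0.0235), TIMP1 (-0.55, 0.0296), MMP9 (-1.28, 0.0311) and MMP19 (-0.84, 0.0356) as lower.

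KO-labelled line 2 was compared with the same control libraries, so its values and those of KO-labelled line 1 are not independent. In this line ADAMTS10 and MMP19 were higher and ADAMTS2 and ADAMTS12 lower. These 4 of 26 members (15.4%) passed against a background of 11.2%, with a median difference of -0.18 over the members. ADAMTS10 had a mean of 764 ± 56.6 (SD, n = 2) and rose by 1.24 (SE 0.21, adjusted p = 0.00763 in limma), and it passed without any 1 of the 8 libraries. MMP19, a basement-membrane-cutting MMP, had values of 29.4 and 31.2 (control line 1), 61.1 and 36.3 (control line 2), 25.8 and 16.6 (KO-labelled line 1) and 101 and 117 (KO-labelled line 2). Both libraries of KO-labelled line 2 lay above all others. MMP19 rose by 1.503 (SE 0.29, adjusted p = 0.0140 in limma). It overlaps the pseudogene TMEM198B (mean 75.0), so its level is uncertain.

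ADAMTS2 had values of 1296 and 1263 (control line 1), 789.8 and 983 (control line 2), 936 and 975 (KO-labelled line 1) and 739 and 733 (KO-labelled line 2), which was the lowest line. It fell by 0.53 (SE 0.12, adjusted p = 0.0276 in limma). ADAMTS12 fell by 0.45 (SE 0.12, adjusted p = 0.0479 in limma) to a mean of 1238 ± 1.17 (SD, n = 2). The plot of differences between lines sets these values beside those of KO-labelled line 1 and of the control lines.

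**Figure D2:**
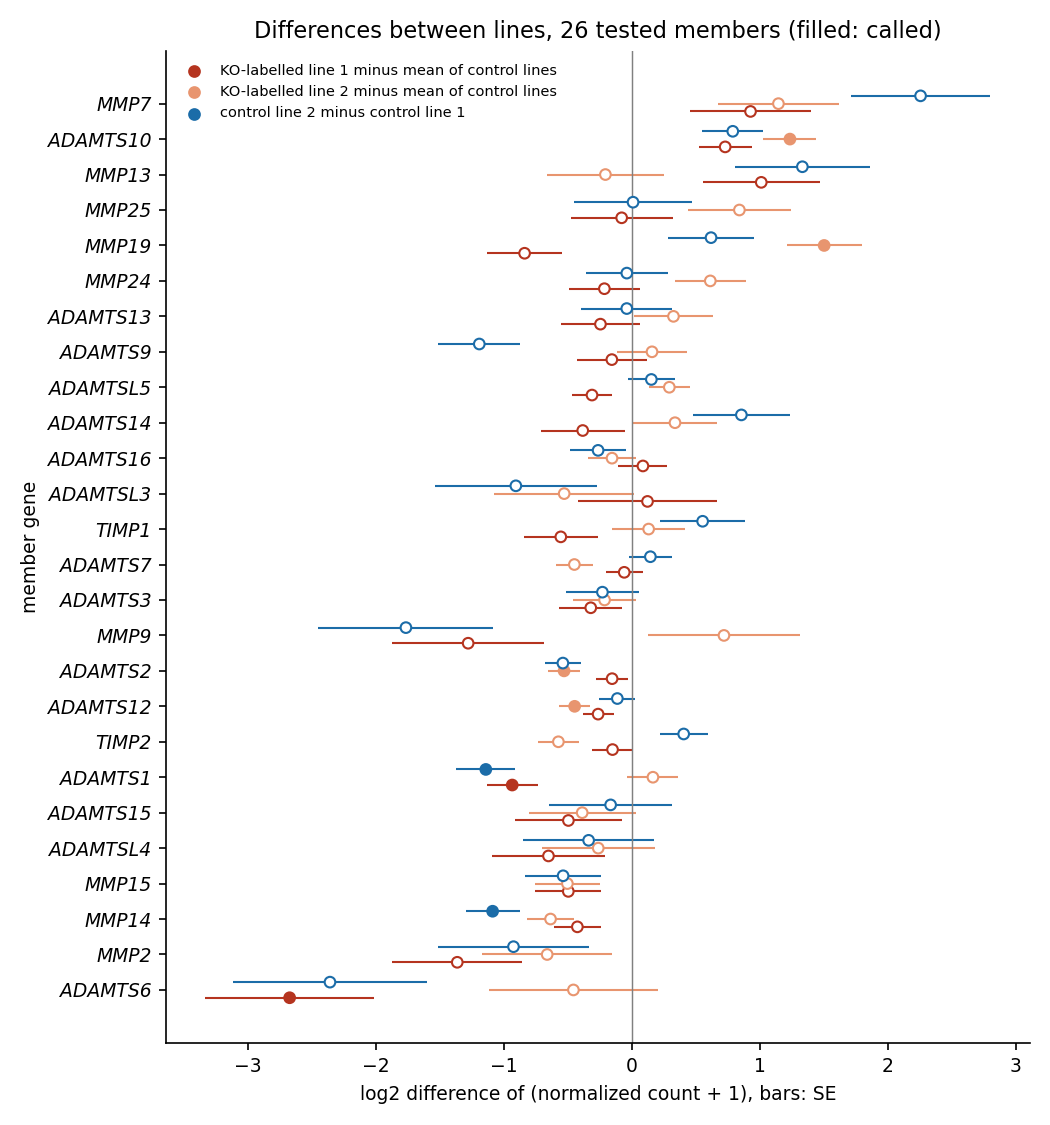
Log2 differences of (normalised read count + 1) with their SE for the 26 tested members: each KO-labelled line minus the mean of the control lines, and control line 2 minus control line 1; filled points had an adjusted p under 0.05 in limma. The MMP7 difference between the control lines (2.26) is larger than that of either KO-labelled line (0.93 and 1.15).

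Of these 4 calls, MMP19 was lost in limma without replicate 1 (adjusted p = 0.0513) or replicate 2 (0.0740) of KO-labelled line 2. The limma call of ADAMTS2 was lost without any 1 library other than replicate 1 of control line 2, with adjusted p of 0.0558 to 0.0897, and that of ADAMTS12 without any 1 library other than replicate 2 of control line 2, with 0.0866 to 0.139. ADAMTS12 was also lost with edgeR (0.0535), no filter (0.0612) and equal totals (0.0699). With the replicate block 11 members passed where 27.4% of all genes did. It added MMP7 (1.15, adjusted p = 0.000205 in limma) and MMP24 (0.61, 0.0185) as higher. It added MMP14 (-0.63, 0.000418), TIMP2 (-0.57, 0.000850), ADAMTS15 (-0.39, 0.0160), MMP15 (-0.50, 0.0194) and ADAMTS7 (-0.45, 0.0207) as lower.

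The control lines carried different non-targeting guides, and their difference shows how far lines differ without a guide against ANXA4. MMP14 and ADAMTS1 were lower in control line 2 than in control line 1, so 2 of 26 members (7.69%) passed against a background of 2.13% of all genes. Over the members the median size of the difference, without its sign, was 0.55, and over all genes it was 0.20. This was not particular to the control lines. In each of the other comparisons the members also had the larger median size, at 0.35 to 0.54 against 0.19 to 0.29 over all genes. MMP14 had means of 6090 ± 923 in control line 2 and 12908 ± 1645 in control line 1 (SD, n = 2 each), and was lower by 1.09 on the log2 scale (value -1.09, SE 0.21, adjusted p = 0.0411 in limma). ADAMTS1 had means of 902 ± 25.7 and 2051 ± 721, with a difference of -1.14 (SE 0.23, adjusted p = 0.0447 in limma). MMP7 had means of 1956 ± 1435 and 362 ± 135, a difference of 2.26 (SE 0.55) that did not pass in limma without a block (adjusted p = 0.0746).

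With the replicate block MMP7 passed (adjusted p = 9.24e-06 in limma) and 9 members did where 12.5% of all genes did. The others the block added were ADAMTS10 (0.79, adjusted p = 0.0186 in limma) and TIMP2 (0.41, 0.0293) as higher in control line 2, and ADAMTS9 (-1.19, 0.00533), ADAMTS2 (-0.54, 0.0129), ADAMTS6 (-2.36, 0.0148) and MMP9 (-1.76, 0.0228) as lower. Both calls made without the block were lost in limma without replicate 2 of control line 1, either library of control line 2 or either library of KO-labelled line 1. The adjusted p in these cases was 0.0731 to 0.293 for MMP14 and 0.0835 to 0.278 for ADAMTS1, and MMP14 was also lost without replicate 1 of control line 1 (0.163). Bars by line show the same members side by side.

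**Figure D3:**
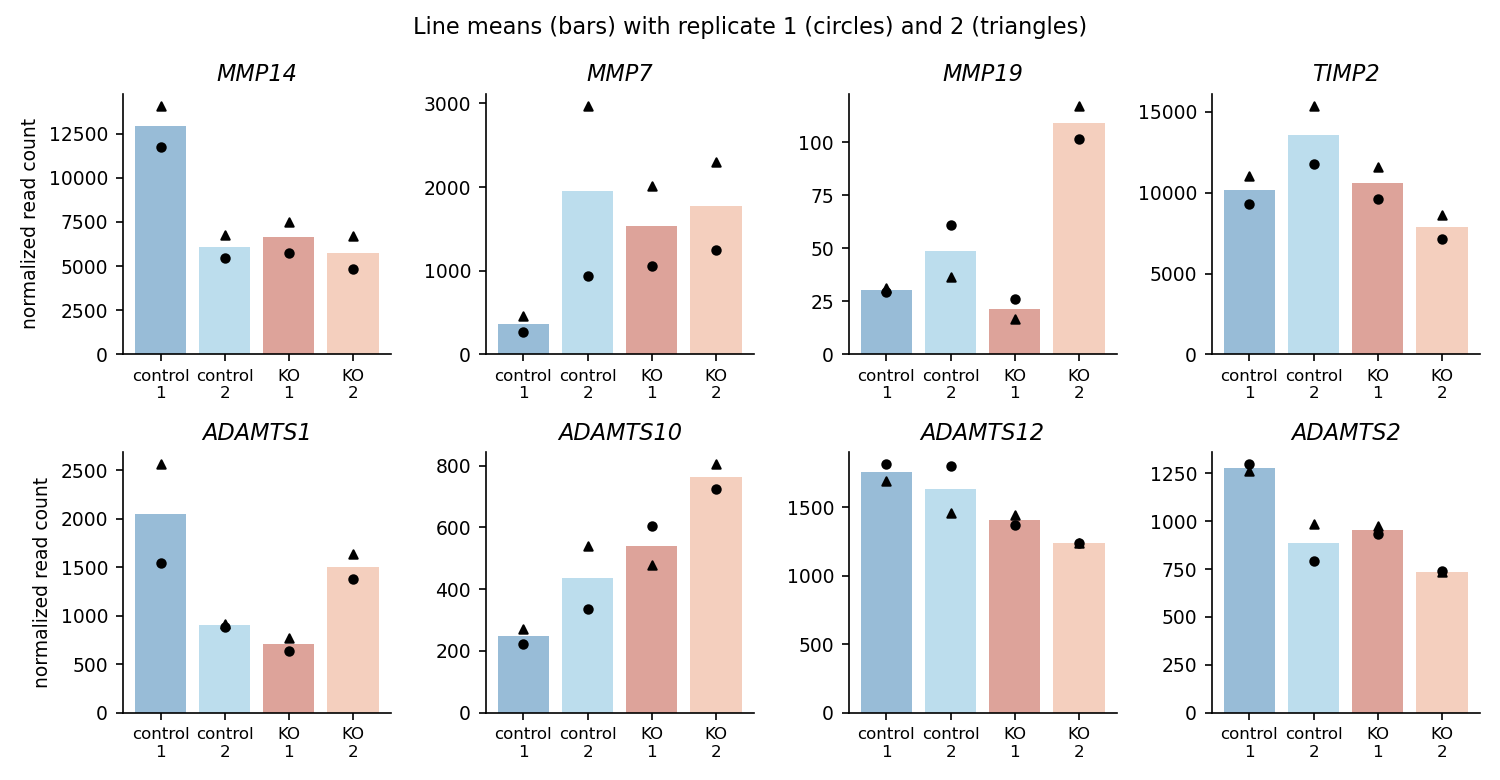
Normalised read counts of 8 members by line; bars are line means, circles replicate 1 and triangles replicate 2 (n = 2 per line, linear axes from 0). Control line 1 has the highest MMP14 and ADAMTS1 and the lowest MMP7 and ADAMTS10, and KO-labelled line 2 has the highest MMP19 (101 and 117).

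KO-labelled line 2 was also set against KO-labelled line 1. The means compared share no library with those of the control lines, but both tests use 1 spread over all 8 libraries. ADAMTS1 and MMP19 were higher in KO-labelled line 2, and 2 of 26 members (7.69%) passed against a background of 6.94%. The means of ADAMTS1 were 1507 ± 188 in KO-labelled line 2 and 704 ± 101 in KO-labelled line 1 (SD, n = 2 each), a difference of 1.10 (SE 0.23, adjusted p = 0.0289 in limma). Those of MMP19 were 109 ± 11.1 and 21.2 ± 6.53, a difference of 2.34 (SE 0.34, adjusted p = 0.00843 in limma). The median difference over the members was 0.35. Without replicate 2 of KO-labelled line 1 neither passed in limma (adjusted p = 0.124 for ADAMTS1 and 0.0870 for MMP19). ADAMTS1 was also lost without replicate 1 of that line (0.162) or replicate 2 of KO-labelled line 2 (0.111, all in limma). The replicate block gave 9 members where 24.5% of all genes passed. It added MMP9 (2.00, adjusted p = 0.00727 in limma), MMP24 (0.83, 0.00981), ADAMTS6 (2.22, 0.0118), TIMP1 (0.69, 0.0215) and ADAMTSL5 (0.60, 0.0227) as higher, and TIMP2 (-0.42, 0.0145) and ADAMTS2 (-0.38, 0.0408) as lower.

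Replicate 2 was compared with replicate 1 within the 4 lines, since the numbers paired the libraries across lines. In this comparison 10 of 26 members (38.5%) passed, against a background of 17.6% of all genes. MMP7, MMP9, MMP14, TIMP1, TIMP2, ADAMTS1 and ADAMTS3 were higher in replicate 2, and ADAMTS15, MMP15 and MMP24 were lower. What the replicate numbers stand for is not given in the labels.

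MMP7 was higher in replicate 2 in 4 of 4 lines, by 0.78 to 1.66, and rose by 1.06 (SE 0.12, adjusted p = 0.000575 in limma). ADAMTS15 was lower in 4 of 4 lines and fell by 0.97 (SE 0.09, adjusted p = 8.74e-05 in limma). Its replicate 1 values were 874, 780.4, 567 and 624 in control lines 1 and 2 and KO-labelled lines 1 and 2, and its replicate 2 values were 436, 389, 302 and 319, without overlap. MMP14 was higher in 4 of 4 lines, by 0.26 to 0.48 (0.36, SE 0.08, adjusted p = 0.00971 in limma), and so was TIMP2, by 0.24 to 0.39 (0.29, SE 0.08, 0.0236). TIMP1 (0.51, SE 0.14, 0.0236) and MMP9 (1.04, SE 0.32, 0.0409) were higher in 3 of 4, with KO-labelled line 1 the exception. For TIMP1 that line gave 1722 and 1714. ADAMTS3 rose by 0.48 (SE 0.11, 0.0137) and ADAMTS1 by 0.33 (SE 0.10, 0.0415), each in 4 of 4 lines. MMP15 fell by 0.49 (SE 0.11, 0.0144) in 4 of 4 lines and MMP24 by 0.48 (SE 0.14, 0.0346) in 3 of 4.

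**Figure D4:**
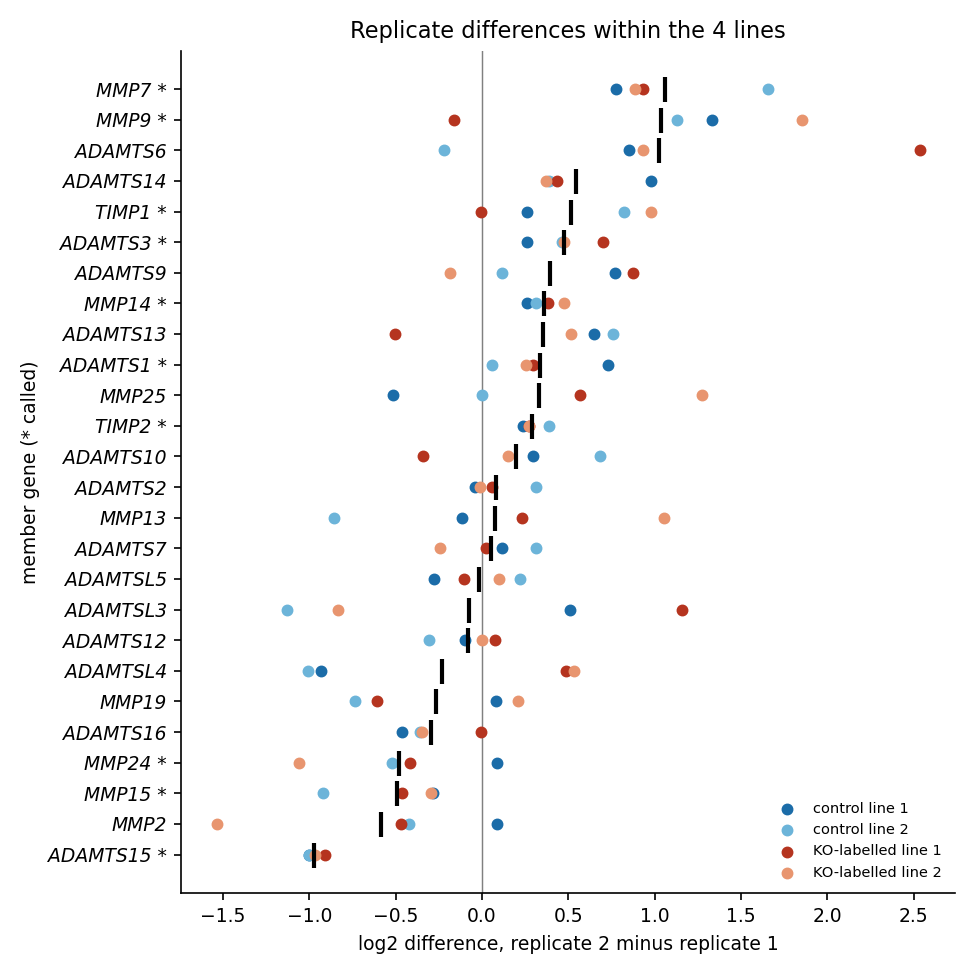
Log2 difference of (normalised read count + 1) between replicate 2 and replicate 1 within each of the 4 lines (points) for the 26 tested members, with the mean of the lines as a bar; an asterisk marks an adjusted p under 0.05 in limma. ADAMTS15 lies near -1 in all 4 lines (-1.004 to -0.91) and MMP7 is above 0.7 in all 4.

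The calls of MMP7 and ADAMTS15 were kept without any 1 library. Without either library of control line 2 only these 2 remained, so ADAMTS1, ADAMTS3, MMP9, MMP14, MMP15, MMP24, TIMP1 and TIMP2 were lost, with adjusted p of 0.0556 to 0.150 in limma. Without a library of KO-labelled line 2, 6 members passed, and ADAMTS1, MMP9, MMP24, TIMP1 and TIMP2 were lost (adjusted p 0.0532 to 0.197 in limma). Without a library of control line 1, 7 passed, and ADAMTS1, MMP9 and TIMP2 were lost (0.0725 to 0.216). Without a library of KO-labelled line 1, ADAMTS1 and MMP24 were lost (0.0613 to 0.0733).

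Summed per kb of merged exon, MMPs outweighed TIMPs in control line 1 and not in the other lines. The MMP sum was 3125 and 3736 (control line 1), 2025 and 3058 (control line 2), 2061 and 2792 (KO-labelled line 1) and 2183 and 2858 (KO-labelled line 2). The sum of the TIMPs was 2890 and 3436, 3576 and 5367, 2818 and 3165, and 2546 and 4050 in the same order. The TIMP sum was thus below the MMP sum in control line 1 (ratio 0.925 and 0.920) and above it in the other lines, at 1.77 and 1.76 in control line 2, 1.37 and 1.13 in KO-labelled line 1 and 1.17 and 1.42 in KO-labelled line 2. The ratio of TIMP2 to MMP14 per kb was 0.630 and 0.621 in control line 1, against 1.71 and 1.81 for control line 2. It was 1.32 and 1.22 in KO-labelled line 1 and 1.18 and 1.02 in KO-labelled line 2, between the control lines. MMP14 made up 84.2% and 84.4% of the MMP sum in control line 1 and 49.4% to 62.6% in the other 6 libraries. The ADAMTS sum was steadier, at 699 to 1038 per kb. These sums are descriptions of RNA levels and were not tested. Merged exons cover all annotated exons of a gene and can be longer than the transcript expressed. Whether a ratio lies above or below 1 therefore depends on this length measure.

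**Figure D5:**
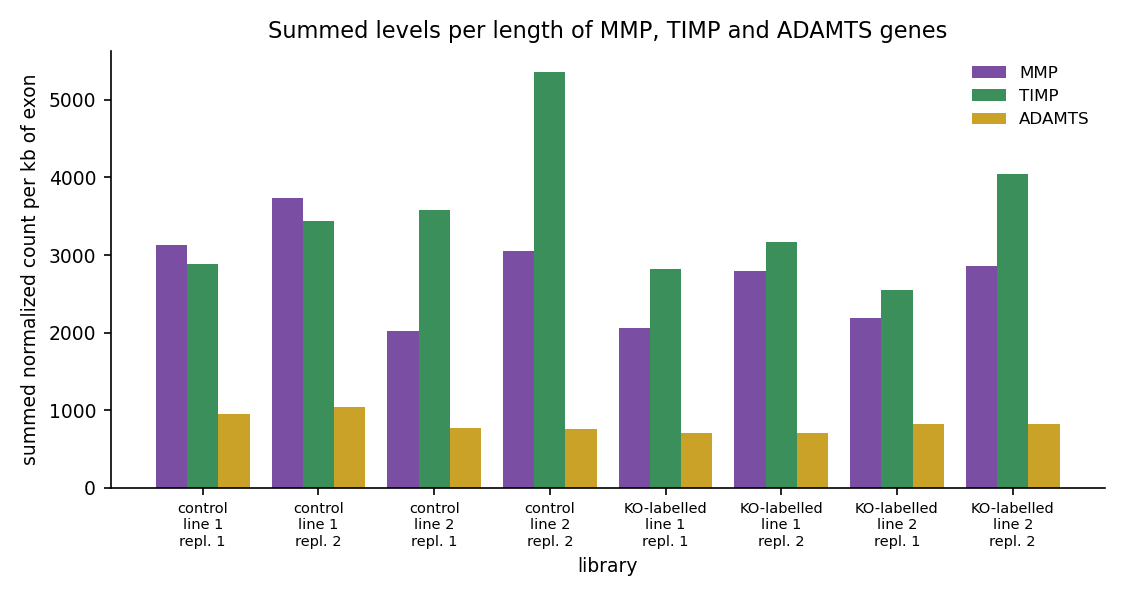
Normalised read counts per kb of merged exon, summed over the MMP, TIMP and ADAMTS genes, in each of the 8 libraries (bars from 0, 1 library each, no error). In both libraries of control line 1 the MMP bar is above the TIMP bar, and in the other 6 it is below.

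Other genes of the same system were read from 5 lists, which were chosen with earlier results of these data known. A list of protease inhibitors other than TIMPs had 13 tested genes. It also held genes that are not plain inhibitors, such as the matrix glycoprotein THBS2 and PCOLCE2, a procollagen C-proteinase enhancer. Between KO-labelled and control libraries the list's median log2 difference was -0.68, and that of all genes was 0.0007. Of the 13 genes 1 was called, where 0.235% of all genes were. It was THBS1, thrombospondin-1, a matrix glycoprotein that binds MMP2 and MMP9 among other partners, with arm means of 4067 ± 531 (control) and 1756 ± 315 (KO-labelled; SD, n = 4). It fell by 1.22 (SE 0.19, adjusted p = 0.0245 in limma), with no overlap between the arms (3399 to 4684 against 1330 to 2014), as for 10.6% of all tested genes. The limma call was lost when each line counted once as the mean of its libraries (adjusted p = 0.511). It was also lost without either library of control line 1 (0.0768 and 0.0657), replicate 1 of control line 2 (0.0692) or replicate 1 of KO-labelled line 2 (0.141). RECK, a membrane-anchored inhibitor of MMP14 and MMP9, was at 342 ± 46.3 and 190 ± 46.7 (-0.87, SE 0.24, adjusted p = 0.191 in limma). In KO-labelled line 2 alone RECK fell by 1.14 (SE 0.19, adjusted p = 0.00801 in limma). The protease inhibitor SPINT2 differed by 1.60 between the arms (adjusted p = 0.0958 in limma).

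Of 21 tested matrix substrates 1 was called in that comparison, TNC, where 0.235% of all genes were. The median was -0.45, and that of all genes was 0.0007. TNC, tenascin-C, is a matrix glycoprotein cut by several MMPs. Its arm means were 6812 ± 319 (control) and 3116 ± 300 (KO-labelled; SD, n = 4), and it fell by 1.13 (SE 0.13, adjusted p = 0.00916 in limma). This call too was lost with each line counted once (adjusted p = 0.387 in limma), a fit that called no gene and had 1086 at an unadjusted p under 0.05. BCAN, brevican, a proteoglycan cut by ADAMTS enzymes, differed by 0.97 (adjusted p = 0.0532 in limma). In KO-labelled line 1, 10 of the 21 substrates passed (2 higher, 8 lower) where 7.01% of all genes did. In KO-labelled line 2 also 10 passed (3 higher, 7 lower) where 11.2% did, against the same control libraries. FN1, fibronectin, named here after its values were seen, had a mean of 19078 in control line 1 and 478 in control line 2. That is a difference of -5.32 (SE 0.17, adjusted p = 1.84e-06 in limma). FN1 is in both counts, as lower in KO-labelled line 1 (mean 845) and as higher in KO-labelled line 2 (mean 6007). Both of these means lay between those of the control lines, so its direction rests on the log2 average of 2 unlike lines.

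Of 20 tested activators and surface regulators, such as furin-like convertases, plasminogen activators and their receptors, none was called between the arms by limma. The median was -0.22, and SDC1, syndecan-1, had the smallest p of the list (-0.93, adjusted p = 0.237 in limma). In KO-labelled line 1, 2 of the 20 were higher, where 7.01% of all genes were called. In KO-labelled line 2, 1 was higher and 6 were lower, where 11.2% were called. None of 11 membrane ADAM proteases (median -0.05) and none of 23 transcriptional and cytokine regulators (median -0.04) was called between the arms by limma. In KO-labelled line 1, 1 of the ADAM genes and 2 of the regulators were called, where 7.01% of all genes were. In KO-labelled line 2, 2 ADAM genes and 4 regulators were called, all lower, where 11.2% were. ADAM23 was at 0 in both libraries of that line and at 218 to 421 in the other lines (-7.97, adjusted p = 2.05e-07 in limma). Between replicates, where 17.6% of all genes were called, 8 of the 13 genes of the inhibitor list were higher in replicate 2 and none lower. Among them were SLPI (1.33), TFPI2 (1.22) and the enhancer PCOLCE2. In the same comparison 6 of 20 activators were higher, among them the urokinase receptor PLAUR (1.11, SE 0.07, adjusted p = 2.41e-05 in limma).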

How the data were processed

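The deposited table held a normalised linear signal for each library separately. Tools named in the submitters' processing notes, with no role given, are fastp 0.23.2, HISAT2 2.2.1, featureCounts 2.0.1 and DESeq2 2.11.40.8, and the builds hg38 and GRCh38. Per the labels, featureCounts gave counts; strand use and annotation are not given in the sources used here. The authors' values were whole reads divided by 1 factor per library (100% of values, largest relative deviation 8.45e-10), so whole reads were recovered for edgeR 4.0.16 and DESeq2 1.42.0. The recovered factors differed from DESeq2 size factors by at most 4.6e-10. Reads carry no molecular identifiers, so limits from counts cover counting error only.

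RefSeq (GRCh38.p14) gave a symbol for 27745 of 28395 identifiers. Exon lengths per kb were those of merged GENCODE exons. The test, limma 3.58.1 (R 4.3.3), used log2(value + 1) of the 14040 genes that reached 10 in 2 or more libraries; this scale understates changes of low genes, with Benjamini-Hochberg adjustment and a threshold of 0.05. KO-labelled and control libraries were compared in limma with a correlation within lines (0.33), and in edgeR and DESeq2 without a term for line. Line contrasts came from a single fit of line means, and replicate contrasts from a fit with line as a term. Scripts were tested on simulated counts.

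Replicate numbers come from the titles. Differences between replicates correlated across genes at Pearson's r 0.285 to 0.501 in all 6 pairs of lines, above the limit of 0.1 for pairing, so values with the block are printed where they change a call. Members given with every value or with their range by arm were those called in any of the 6 comparisons, those with an unadjusted p under 0.05 between the arms, or those with a mean of at least 50; up to 4 genes of each list with the smallest p could be named. The members and lists were chosen with earlier results of these data known. Alternatives covered the pseudocount, filter, scaling, block, test and each library left out. One item of the marker lists is not reported here.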

Additional observations from a re-analysis of the deposited data

Results flagged for a closer look

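Groups of 4 libraries were examined on log2(value + 1) for a library far from the others. Of 40 such groups 2 passed Dixon's 95% limit for 4 values, where chance would flag about 1 in 20. In the KO-labelled libraries TIMP1 was highest in replicate 2 of KO-labelled line 2 (3882, against 1714 to 1967 in the other 3), with a gap of 0.831 of the range. ADAMTS16 was lowest in the same library (202, against 256 to 269), also with 0.831. Both gaps are on that log2 scale and not on the values printed here. This library had the lowest depth of the 8 (15784890 reads). It is also a replicate 2 library. ADAMTS16 was lower in replicate 2 in each line (log2 difference -0.46 to -0.003), and TIMP1 was higher in 3 of 4. In replicate 2 of control line 2 they stood at 204 and 4064. The part of the library, its depth or its replicate number in the flagged values was not tested.

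The lines labelled KO differed from each other in 2 members by a test of that difference. ADAMTS1 was higher in KO-labelled line 2 than in KO-labelled line 1 by 1.10 on the log2 scale, and MMP19 by 2.34. ANXA4 was low only in KO-labelled line 1 (236 and 234, against 3433 and 4142).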

How the results depend on the processing

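Limits: each arm had 2 lines of 2 libraries, each guide was in 1 line, and leaving out 1 library of a line left a lone library that is assumed to vary like the other lines. Depth limits the 26 members below the filter, of which 17 had reads and entered only with no filter. For counts of members called, the cause of each change was not tested. Between KO-labelled and control libraries 0 members were called, but 1 with fixed line means or with DESeq2, which had no term for line there. KO-labelled line 1 gave 2, but 1 with a pseudocount of 0.1, no filter, a mean of at least 50, equal totals or edgeR, 10 with the replicate block and 0 to 2 without 1 library. KO-labelled line 2 gave 4, but 3 with edgeR (ADAMTS12 lost), 5 with TMM (TIMP2 gained) or equal totals (ADAMTS12 lost, MMP14 and TIMP2 gained), 6 with DESeq2 (MMP14 and TIMP2 gained) or no filter (ADAMTS12 lost, MMP1, MMP3 and ADAMTS19 gained), 11 under the replicate block and 1 to 4 without 1 library. Control line 2 against 1 gave 2, but 0 with no filter, 1 with a mean of at least 50, 9 with the block, 6 with DESeq2 and 0 to 2 without 1 library. KO-labelled line 2 against 1 gave 2, but 4 with no filter (MMP1 and ADAMTS19 gained) or DESeq2, 9 with the block and 0 to 3 without 1 library. The replicate comparison gave 10, but 0 with no line term and 2 to 10 without 1 library. The block removed no call. Among 20 called member results no alternative turned the direction, and 100 of 338 lost the call. Of uncalled differences between the arms, ADAMTS9 (0.00) became -0.00109 with a pseudocount of 10, -0.000704 with equal totals, -0.114 with edgeR and -0.113 with DESeq2, and ADAMTSL5 (-0.01) became 0.0156 with edgeR and 0.0157 with DESeq2. Without 1 library the ranges that crossed 0 were -0.13 to 0.28 for ADAMTS9, -0.0894 to 0.0894 for ADAMTSL5, -0.12 to 0.21 for ADAMTS13, -0.13 to 0.0859 for ADAMTS16, -0.0870 to 0.38 for MMP24, -0.85 to 0.17 for MMP9 and -0.48 to 0.00895 for TIMP1. No scaling moved the median of all genes by over 0.1.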
